A study of Mus musculus with 9 samples.

Results

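Imprinted genes are transcribed mainly from 1 parental copy. The expression of 10 of them, H19, Meg3, Peg3, Peg10, Mest, Plagl1, Grb10, Ndn, Sgce and Nnat, was followed through the differentiation of 3T3-L1 cells. The genes were taken by name, with earlier results of these data known. All 10 were found among the 19094 genes listed in at least 1 sample. The 3T3-L1 line is a mouse fibroblast-like preadipocyte line of a single clonal origin that turns into lipid-filled adipocytes in culture. Cells were grown to near confluence in complete medium and collected on day 0, before any inducer, in 3 samples. The 3 samples of day 4 had received dexamethasone, IBMX and insulin and were then kept in medium with insulin. The 3 samples of day 8 had stayed in medium with insulin for a further 4 days. Of these agents, insulin alone was present when day 4 and day 8 cells were collected, and none had been added to day 0 cells. The comparison of day 4 with day 0 is called the early phase, day 8 with day 4 the late phase and day 8 with day 0 the whole process. The 3 comparisons share samples and are not independent of each other.

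In an imprinted domain, DNA methylation laid down in the egg or the sperm silences 1 of the parental copies, and genes of opposite parental origin often lie side by side. Many imprinted genes are highly expressed in the embryo and placenta, fall after birth and act on growth, energy balance and fat. Of the 10 genes, H19, Meg3 and, in most tissues, Grb10 are expressed from the maternal copy, and the other 7 from the paternal copy. The reads were not assigned to parental copies, so each value is the sum of both.

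Per sample, between 18216114 and 20452144 estimated reads were assigned to genes. Levels are given as FPKM, which is scaled to gene length and sample depth, and changes as log2 fold changes of edgeR with their standard error (SE). A gene was called higher or lower when the adjusted p (Benjamini-Hochberg over all genes tested) was under 0.05 and the fold change above 2. Of the 10 genes, 8 passed the filter on low counts, while Grb10 and Meg3 did not. The samples were mixtures of RNA, so the p-values measure the spread between these samples, which may be technical. In bulk RNA, fewer cells of a type and less RNA per cell cannot be told apart.

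The label of every sample gives the 3T3-L1 line, but the extraction text of the labels names DRG tissue. The 9 adipocyte markers summed to 34.4 ± 1.41 FPKM on day 0, 6018 ± 1122 on day 4 and 7779 ± 311 on day 8 (SD, n = 3), and all 9 were called higher in the early phase. The 9 fibroblast or preadipocyte markers summed to 7591 ± 195, 5374 ± 279 and 6918 ± 87.5 FPKM. Of these, 2 were called lower in the early phase (Fn1 and Ly6a), 0 in the late phase and 3 over the whole process, with 0 called higher. They moved in different directions: late log2 fold changes were 0.85 for Col1a1, 0.81 for Col1a2 and -0.48 for Vim. Among markers of sensory neurons or their glia, Prph, Isl1, Tubb3, Scn9a and Calca had at most 16 estimated reads in any sample, Scn10a had 1 read in 1 sample, and Pou4f1 was in none of the files. Macrophage or leukocyte markers summed to at most 4.04 FPKM in any sample and endothelial markers to at most 0.5 FPKM, with Tie1 in none of the files. The sum of adipocyte markers was thus low on day 0 and high on the later days, with Pparg the most abundant of them on day 0 and Fabp4 afterwards, and Lep was listed in no sample of day 0. The fibroblast sum was led by Vim on day 0 and day 4 and by Col1a2 on day 8, while Cd34 of this list had at most 34.83 estimated reads.

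Peg10 and Mest, both paternally expressed, rose the most among the 10 genes. Peg10 derives from a retrotransposon and is needed for placental development. Like a retrovirus, it makes a short protein and, when ribosomes slip back by 1 base, a longer one. The slip site of Peg10 is shown because its 2 products share 1 transcript, so that a single count stands for both. It lies at base 1477 to 1483 of the 6667-base GENCODE transcript Peg10-202. The stretch printed covers bases 1441 to 1498 of this transcript (GRCm38, chr6:4755291-4755348, plus strand), within the annotated coding sequence, and the heptamer is in capitals.
Peg10: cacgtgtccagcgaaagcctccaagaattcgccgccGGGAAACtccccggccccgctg
From the heptamer, the original frame ran for 7 more codons to a stop, and the frame 1 base back had no stop for 637 codons. No 50-base stretch of the Peg10 transcripts occurs in another gene of that annotation.

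Peg10 was at 14.73, 18.05 and 14.43 FPKM on day 0, at 46.29, 51.85 and 57.4 on day 4 and at 111.33, 124.37 and 131.14 on day 8. No sample of 1 day overlapped with those of another. The log2 fold change was 1.79 (SE 0.09, edgeR adjusted p = 4.05e-11) in the early phase and 1.28 (SE 0.09, edgeR adjusted p = 6.19e-09) in the late phase. Over the whole process Peg10 was 8.41-fold higher (log2 fold change 3.07, SE 0.09, edgeR adjusted p = 8.14e-14). By mean FPKM it went from rank 4848 on day 0 to 1637 on day 4 and 598 on day 8, among 17650, 17581 and 17284 genes with a value above 0. The libraries with the lowest and the highest Peg10 on day 4 were also those with the lowest and the highest sum of adipocyte markers, 4910 FPKM in replicate 1 and 7153 in replicate 3. At day 8 the lowest sum was again in replicate 1, with 7419 FPKM, against 7956 and 7961 in the others, and Peg10 was lowest there too. Mest, described next, had its highest value in replicate 1 and its lowest in replicate 3 on both days. On day 4 its replicates 2 and 3 were nearly equal, at 30.3 and 30.22 FPKM. These are orders of 3 samples per day, given as a description. The part of the adipocyte share in these levels was not tested.

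Mest encodes a protein of the alpha/beta hydrolase fold family that is known as a marker of fat tissue expansion. It was at 6.3, 5.44 and 5.44 FPKM on day 0, at 34.24, 30.3 and 30.22 on day 4 and at 59.85, 57.93 and 54.63 on day 8. The 3 days did not overlap. In the early phase Mest rose 5.77-fold (log2 fold change 2.53, SE 0.07, edgeR adjusted p = 3.87e-14). In the late phase its log2 fold change of 0.91 (SE 0.06, edgeR adjusted p = 3.99e-09) stayed under the fold threshold. It was 10.8-fold higher on day 8 than on day 0 (log2 fold change 3.44, SE 0.07), the largest change of the 8 genes tested. In the GENCODE annotation, 21.2% of the 50-base stretches of Mest occur on the opposite strand in Copg2, and whether the counting used strand is not given in the sources used here. Copg2, which overlaps Mest tail to tail and encodes a coat protein subunit, was at 20.003 ± 0.419 FPKM on day 0 and 26.6 ± 0.682 on day 8 (SD, n = 3). Its log2 fold change over the whole process was 0.52 (SE 0.05), below the fold threshold.

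**Figure D1:**
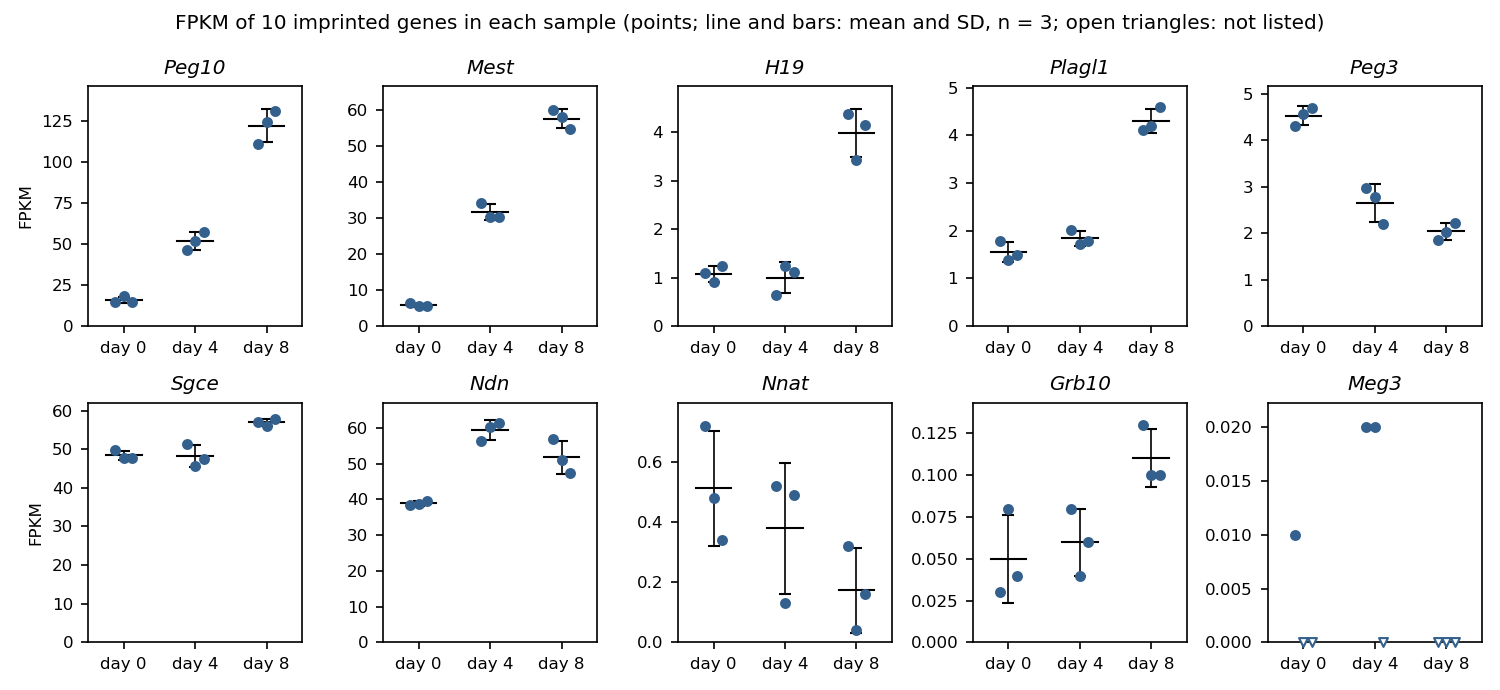
FPKM of the 10 imprinted genes in each of the 9 samples by day, with a point per sample, the mean as a line and the SD as bars (n = 3); Meg3 has no mean, and open triangles mark samples that do not list it. Peg10 and Mest are separated between all 3 days, H19 and Plagl1 stand higher on day 8 only, and each panel has its own axis from 0.

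H19 and Plagl1 rose in the late phase. H19 is a non-coding RNA of the H19/Igf2 domain and the host of a microRNA, and it is made from the maternal copy. It was at 1.09, 0.91 and 1.24 FPKM on day 0, at 0.64, 1.24 and 1.11 on day 4 and at 4.38, 3.42 and 4.15 on day 8. The samples of day 0 and day 4 overlapped, and each sample of day 8 was above all of them. H19 was 4.10-fold higher on day 8 than on day 4 (log2 fold change 2.03, SE 0.19, edgeR adjusted p = 2.36e-07). Its early log2 fold change was -0.05 (SE 0.22, 95% confidence interval -0.53 to 0.43), and the sign turned when day 0 replicate 3 (0.06) or day 4 replicate 1 (0.18) was left out. These levels rest on 29.62 to 58 estimated reads per sample on day 0 and day 4 and on 158 to 202 on day 8.

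Plagl1 encodes a zinc finger transcription factor that is known to act on other imprinted genes, among them H19 and Igf2. It was at 1.78, 1.39 and 1.48 FPKM on day 0, at 2.01, 1.71 and 1.79 on day 4 and at 4.11, 4.2 and 4.59 on day 8. In FPKM the samples of day 0 and day 4 overlapped, and those of day 8 lay above both. The early change was small (log2 fold change 0.31, SE 0.11, edgeR adjusted p = 0.0224). In the late phase Plagl1 rose 2.41-fold (log2 fold change 1.27, SE 0.10, edgeR adjusted p = 3.61e-08), and over the whole process 2.99-fold. With limma on log2(FPKM + 1) the late log2 fold change was 0.90 and lost the call.

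Peg3 fell. It encodes a large zinc finger protein that binds DNA and takes part in growth and maternal behaviour. It was at 4.31, 4.58 and 4.71 FPKM on day 0, at 2.98, 2.78 and 2.19 on day 4 and at 1.86, 2.03 and 2.22 on day 8. All samples of day 0 were above those of the later days, while day 4 and day 8 overlapped. Its log2 fold change was -0.71 (SE 0.10) in the early phase and -0.33 (SE 0.11) in the late phase, neither past the fold threshold. At day 8 it was 2.06-fold lower than on day 0 (log2 fold change -1.04, SE 0.10, edgeR adjusted p = 1.47e-07). This value is close to the fold threshold, and it was -0.97 without day 8 replicate 1 and -0.87 with limma on log2(FPKM + 1), neither of which was called.

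**Figure D2:**
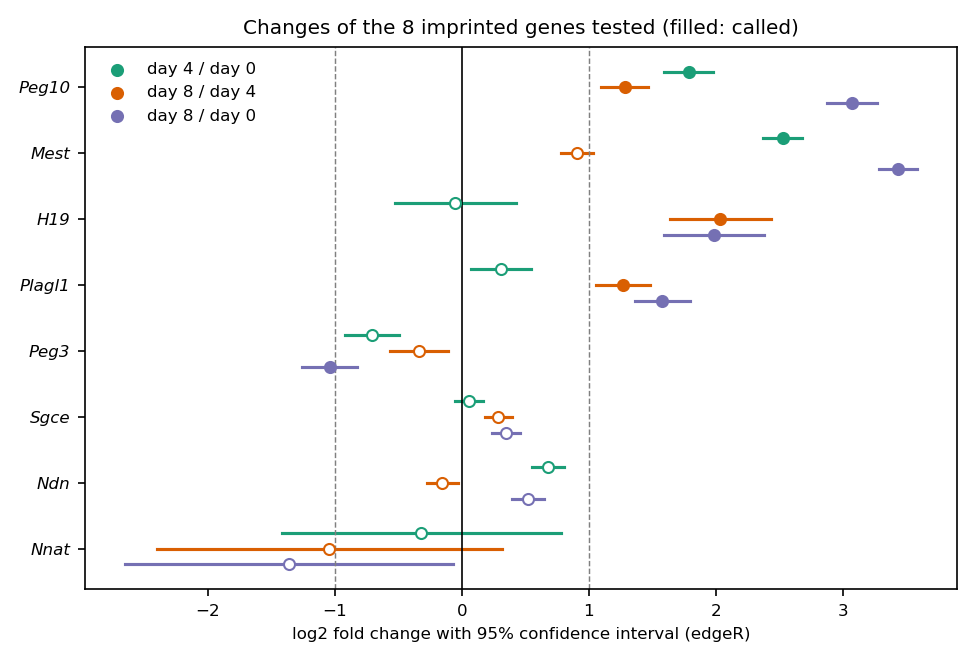
Log2 fold changes of the 8 imprinted genes tested, with 95% confidence intervals of edgeR, in the early phase (day 4 / day 0), the late phase (day 8 / day 4) and the whole process (day 8 / day 0). Filled points were called, dashed lines mark the fold threshold, and Peg3 is the called gene on the lower side, with -1.04 over the whole process.

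Sgce and Ndn were among the most abundant of the 10 genes at every day and were not called in any comparison. Sgce encodes epsilon-sarcoglycan, a membrane protein whose loss causes an inherited dystonia, and it lies head to head with Peg10. It was at 49.76, 47.83 and 47.66 FPKM on day 0, at 51.38, 45.77 and 47.36 on day 4 and at 56.96, 56.08 and 57.94 on day 8. The samples of day 8 lay above all others, and those of day 0 and day 4 overlapped. Its log2 fold change was 0.06 (SE 0.05) in the early phase, a sign that turned with library size alone (-0.0068) and with both limma fits. It was 0.29 (SE 0.05) in the late phase and 0.35 (SE 0.05, 95% confidence interval 0.24 to 0.45, edgeR adjusted p = 1.29e-05) over the whole process. The confidence interval of Peg10 over the whole process ran from 2.87 to 3.27, so the intervals of these neighbours did not overlap. Casd1, the gene on the other side of Sgce, had a log2 fold change of 0.27 (SE 0.06).

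Ndn encodes necdin, a protein of the MAGE family that restrains cell growth, from the region deleted in Prader-Willi syndrome. It was at 38.47, 38.59 and 39.58 FPKM on day 0, at 56.27, 60.36 and 61.51 on day 4 and at 56.81, 50.9 and 47.52 on day 8. The samples of day 0 were below all others, and those of day 4 and day 8 overlapped. The log2 fold change was 0.68 (SE 0.06, edgeR adjusted p = 3.05e-08) in the early phase, -0.15 (SE 0.06) in the late phase and 0.52 (SE 0.06) over the whole process, each below the fold threshold.

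Nnat, Grb10 and Meg3 were near the lower end of detection. Nnat encodes neuronatin, a small membrane protein of the endoplasmic reticulum. It had 18, 10 and 8 estimated reads on day 0, 13, 3 and 12 on day 4 and 8, 1 and 4 on day 8. In reads all 3 days overlapped, with day 0 and day 8 meeting at 8. In FPKM, Nnat on day 0 (0.34 to 0.72) lay above day 8 (0.04 to 0.32), and day 4 overlapped with both. Its log2 fold change over the whole process was -1.36 (SE 0.61, edgeR adjusted p = 0.0563), which was not called. It was called lower when day 0 replicate 3 (-1.60), day 4 replicate 2 (-1.34) or day 8 replicate 1 (-2.11) was left out. Leaving out day 8 replicate 2 moved it to -0.90, without a call. Grb10 encodes an adaptor that inhibits the insulin and IGF1 receptors. It had 3, 7 and 4 estimated reads on day 0, 8, 4 and 6 on day 4 and 13, 10 and 10 on day 8, so that each sample of day 8 was above all others. Without the filter on low counts its log2 fold change over the whole process was 1.30 (SE 0.52, edgeR adjusted p = 0.0351), which passed both thresholds and made it the fifth of the 10 genes called higher in that setting. Meg3, a maternally expressed non-coding RNA that can act as a growth suppressor, was listed in 3 of the 9 files, with 3.33 estimated reads in 1 sample of day 0 and 3.58 and 4.1 in 2 samples of day 4. The files list genes from an FPKM of 0.01, so its absence from the others says only that it was below that value. For these genes a count of 3 corresponded to 0.147 to 0.165 CPM, so that their values rest on few reads.

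In the early phase 2 of the 8 genes tested were called higher and 0 lower, against 9.77% and 7.98% (17.8% together) of all 13154 genes tested. In the late phase 3 were called higher and 0 lower, against 4.24% and 2.81% (7.05% together). Over the whole process 4 were called higher and 1 lower, against 10.3% and 7.7% (18% together). Beside the 0 lower calls, edgeR gave an adjusted p under 0.05 with a negative log2 fold change, whatever its size, to 1 gene in the early phase (Peg3) and to 2 in the late phase (Peg3 and Ndn). In either direction, 5, 7 and 7 of the 8 genes had an adjusted p under 0.05 in the 3 comparisons, against 69.2%, 45.3% and 71% of all genes tested. The median log2 fold change of the 8 genes was 0.18, 0.60 and 1.05 in the 3 comparisons, against 0.02, -0.01 and -0.02 for all genes tested. For the 36 other imprinted genes tested it was 0.04, 0.12 and 0.19. The 10 genes were chosen with earlier results of these data known, so their counts and medians are a description of these genes. The groups did not overlap in normalised counts for 5, 5 and 7 of the 8 genes, where 72.3%, 54.5% and 75.5% of all genes did not overlap, so these counts are near the background. The 2 genes that failed the filter are in none of these counts.

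The summed FPKM of the 10 genes was 116 ± 1.36 on day 0, 197 ± 4.51 on day 4 and 299 ± 3.35 on day 8 (SD, n = 3). At day 0 Sgce gave 41.6% and Ndn 33.4% of this sum, while Peg10 gave 13.5% and Mest 4.92%. At day 8 Peg10 gave 40.9%, Mest 19.2%, Sgce 19.1% and Ndn 17.3%. The order of levels on day 0 was Sgce, Ndn, Peg10, Mest, Peg3, Plagl1, H19, Nnat and Grb10, and neighbours in this order from Sgce to H19 did not overlap between samples. At day 4 Ndn (59.4 FPKM), Peg10 (51.8) and Sgce (48.2) followed each other with overlapping samples, and Mest (31.6) stood below them. At day 8 Peg10 stood above all others, and the samples of Mest (57.5 FPKM), Sgce (57.0) and Ndn (51.7) overlapped, as did those of Plagl1 (4.30) and H19 (3.98). Peg3, above both of these on day 0, was below them on day 8 with 2.04 FPKM.

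**Figure D3:**
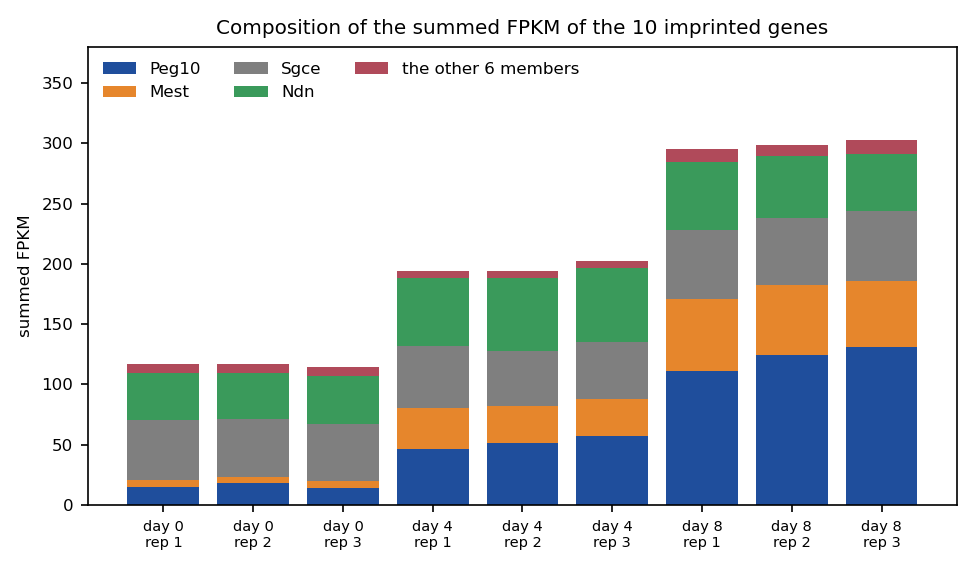
Summed FPKM of the 10 imprinted genes in each of the 9 samples, split into Peg10, Mest, Sgce, Ndn and the other 6 genes as stacked bars from 0. The bars of 1 day are nearly equal in height, and from day 0 to day 8 the part of Peg10 grows from 13.5% to 40.9% of the sum.

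The other genes of the 9 imprinted domains were examined next. Of 26 such genes, 22 were in the files and 14 passed the filter. In the early phase 4 of the 14 were called higher and 2 lower, in the late phase 4 higher and 0 lower, and over the whole process 4 higher and 1 lower. Of all genes tested, 9.77% were called higher and 7.98% lower in the early phase, 4.24% and 2.81% in the late phase, and 10.3% and 7.7% over the whole process. In the late phase, edgeR gave an unadjusted p under 0.05 with a negative change to 0 of the 14. Their median log2 fold changes were 0.41, 0.34 and 0.61, beside those of all genes given above.

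In the H19/Igf2 domain, Igf2, the paternally expressed growth factor next to H19, was at 2.43, 2.41 and 2.72 FPKM on day 0, at 10.93, 13.16 and 14.15 on day 4 and at 55.15, 67.36 and 73.01 on day 8. The days did not overlap, and Igf2 rose in the early phase (log2 fold change 2.25, SE 0.12) and in the late phase (2.42, SE 0.09). It was 25.4-fold higher on day 8 than on day 0 (log2 fold change 4.67, SE 0.11, edgeR adjusted p = 4.89e-15). Both genes of this pair were thus called in the late phase, and Igf2 but not H19 in the early phase, for which the difference between the genes was not tested. Of the 50-base stretches of Igf2, 61.2% also occur in the annotated gene Gm49394 on the same strand, so its count is uncertain where the authors' annotation holds that gene.

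In the Dlk1/Meg3 domain, Dlk1 encodes Pref-1, the membrane protein that keeps preadipocytes from differentiating, and is made from the paternal copy. It was at 793.95, 827.68 and 861.05 FPKM on day 0, at 183.11, 193.27 and 165.87 on day 4 and at 417.77, 408.95 and 419.24 on day 8. The days did not overlap, with day 4 lowest. Dlk1 was called lower in the early phase (log2 fold change -2.13, SE 0.06) and higher in the late phase (1.24, SE 0.06), and over the whole process its log2 fold change was -0.88 (SE 0.06). The paternally expressed retrotransposon-derived gene Rtl1 had 12.1 to 34.78 estimated reads per sample and was not called. Rian, a maternally expressed non-coding RNA, had 8.97 to 32 estimated reads and was called higher in the late phase (log2 fold change 1.36, SE 0.30), from 0.12 to 0.15 FPKM on day 4 to 0.26 to 0.44 on day 8, and lost the call with both limma fits (0.25 and 0.91).

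Around Peg10 and Sgce, Pon2 and Ppp1r9a are 2 genes on the Peg10 side with reported maternal expression in some tissues. Pon2, an intracellular lactonase with antioxidant function, was at 11.05 to 11.61 FPKM on day 0, 22.75 to 23.91 on day 4 and 28.65 to 35.02 on day 8. It was called higher in the early phase (log2 fold change 1.10, SE 0.08) and over the whole process (1.60, SE 0.07). Its early value was 0.97 with limma on log2(FPKM + 1), which was not called. Ppp1r9a encodes neurabin, an actin-binding protein. It had 1.04 to 3.93 estimated reads on day 0, 7.09 to 10.5 on day 4 and 19.22 to 21.97 on day 8. The separate model of day 0 and day 4 gave no value for Ppp1r9a. The gene thus passed the filter only with day 8, where it was highest, included, and its early call rests on this. It was called higher in all 3 comparisons (log2 fold change 3.16, SE 0.44, over the whole process), but in none with limma on either FPKM scale, where its whole-process value was 0.13 with a pseudocount of 1 and 0.87 with 0.1.

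In the Ndn/Snrpn domain, Snrpn, a spliceosomal protein gene, had a log2 fold change of 0.73 (SE 0.06) over the whole process, below the fold threshold, and 21.7% of its stretches are shared with Gm38393. Peg12, an intronless gene of the same domain, was at 4.07, 4.77 and 4.32 FPKM on day 0, at 1.69, 2 and 1.44 on day 4 and at 1.91, 2.09 and 1.94 on day 8. It was called lower in the early phase (log2 fold change -1.29, SE 0.13) and over the whole process (-1.03, SE 0.12), where the value was -0.97 without day 0 replicate 2 and -0.998 without day 8 replicate 1, both uncalled. With limma on log2(FPKM + 1) neither call of Peg12 was kept (-0.99 early, -0.85 over the whole process). Snurf, Mkrn3 and Ube3a were not called. Of the stretches of Snurf, 100% are shared with Gm38393 on the same strand, so its count is uncertain where the authors' annotation holds that gene. Blcap, in whose intron Nnat lies, had a log2 fold change of 0.57 (SE 0.05) over the whole process, below the fold threshold. Ddc, beside Grb10, encodes an enzyme of dopamine and serotonin synthesis and had 2 to 12 estimated reads per sample. It was called higher in the early phase (log2 fold change 1.64, SE 0.64) and over the whole process (1.62, SE 0.64). The separate model of day 0 and day 4 gave no value for Ddc. The gene thus passed the filter only with day 8 included. Its estimated reads were 2 to 4 on day 0, 3 to 12 on day 4 and 4 to 11 on day 8. Ddc was admitted through the later days, and both of its calls rest on this. Without day 0 replicate 2 or 3 or day 8 replicate 1 or 2 the whole-process value was 1.51, 1.43, 1.34 and 1.54 and no longer called, and without day 0 replicate 2 or 3 or day 4 replicate 1 or 3 the early value was 1.52, 1.45, 1.49 and 1.27, also uncalled. Both calls of Ddc were also lost with the Wald test of DESeq2 (adjusted p = 0.0563 early and 0.0562 over the whole process) and with limma on log2(FPKM + 1) (0.17 in each) and on log2(FPKM + 0.1) (0.78 and 0.80).

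**Figure D4:**
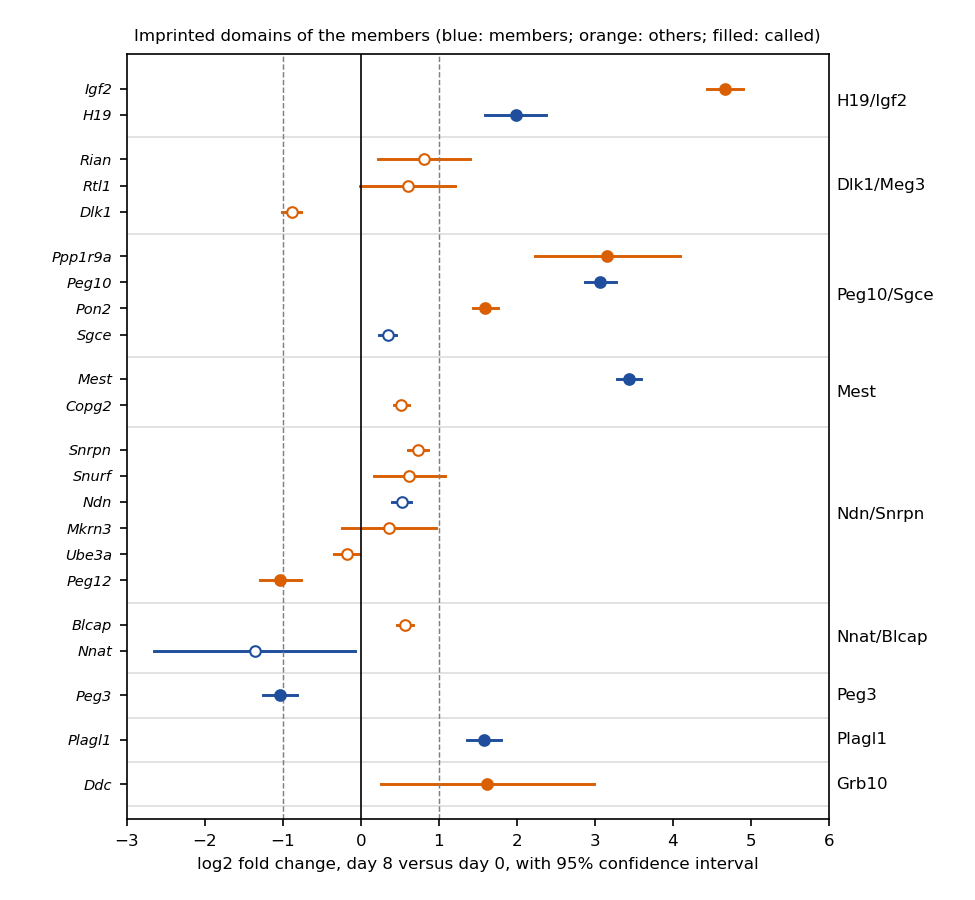
Log2 fold changes over the whole process (day 8 versus day 0), with 95% confidence intervals, of the tested genes in the 9 imprinted domains; blue points are the 8 of the 10 genes followed here that were tested, orange points the other genes, and filled points were called. Within single domains the values differ widely, such as 0.35 for Sgce and 3.07 for Peg10, or -1.03 for Peg12 and 0.73 for Snrpn. Ppp1r9a, at 3.16, and Ddc, at 1.62, passed the filter only with day 8 included and were not called with limma on either FPKM scale.

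For each called gene, the genes with the most similar early and late log2 fold changes were found among the 11467 genes whose mean log2 CPM reached 1, by Euclidean distance over the 2 values. For Peg10 these were Fam132a, Cgnl1 and Ltc4s, at distances of 0.098 to 0.25. For Mest they were Mc1r, Olfm2 and Igfbp5, at 0.050 to 0.14. For H19 they were Emilin2, Fam198a and Plekha6, at 0.026 to 0.29, with 1 gene within a distance of 0.2. For Plagl1 they were F11r, Mif and Rbpms2, at 0.053 to 0.088. For Peg3 they were Ankrd28, Plxnb1 and Fnip1, at 0.013 to 0.035, with 146 genes within a distance of 0.2. These profiles are descriptions over 3 days.

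**Figure D5:**
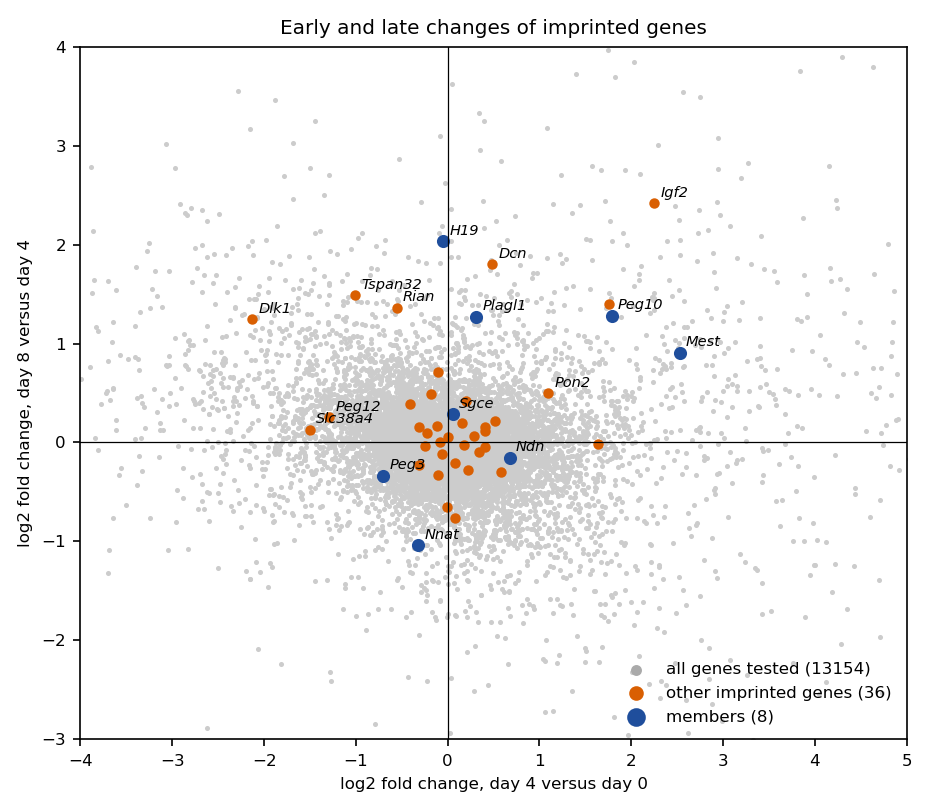
Log2 fold change in the early phase against that in the late phase for the 13154 genes tested (grey), the 36 other imprinted genes tested (orange) and the 8 of the 10 genes followed here that were tested (blue). Peg10, Mest and Igf2 lie to the upper right, H19 and Plagl1 near 0 on the early axis, Dlk1 to the upper left and Peg3 to the lower left; 214 genes lie outside the axes, and both axes use day 4.

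Promoter sequences of 7 of the 10 genes, in 11 windows, were found in the RefSeq table (GRCm38.p6), each window running from 250 bases before to 50 bases after a start. H19, Peg10 and Sgce were not matched. The letters TGCCGC were searched on both strands, because ZFP57, the zinc finger protein that keeps the methylation of imprinted regions, binds these letters when they are methylated. They occurred in 6 of the 11 windows, against 11.6% of all 32851 windows. The 6 windows belong to Mest, Plagl1, Nnat, Grb10 and Meg3, and 2 of them are windows of Mest whose starts lie 3 bases apart and that hold the same sites. The genes with the letters include 2 that rose, 1 that was not called and 2 that were not tested. Another window of Mest (chr6:30733256-30733555) lacks the letters. The 250 bases before the start are shown for Plagl1 and for a Mest window with the letters, both genes having risen. Those of Peg3, which fell and lacks the letters, are shown too. Ndn also lacks the letters, with a log2 fold change of 0.52 over the whole process, and Nnat holds them, with -1.36. Neither was called. The letters or their reverse complement are in capitals.
Mest (chr6:30737800-30738049, plus strand): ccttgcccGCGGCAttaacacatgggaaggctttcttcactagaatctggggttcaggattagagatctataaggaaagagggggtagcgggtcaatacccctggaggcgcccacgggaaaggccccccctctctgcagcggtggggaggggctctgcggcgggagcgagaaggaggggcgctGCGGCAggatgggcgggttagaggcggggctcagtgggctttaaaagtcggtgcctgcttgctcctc
Plagl1 (chr10:13090582-13090831, plus strand): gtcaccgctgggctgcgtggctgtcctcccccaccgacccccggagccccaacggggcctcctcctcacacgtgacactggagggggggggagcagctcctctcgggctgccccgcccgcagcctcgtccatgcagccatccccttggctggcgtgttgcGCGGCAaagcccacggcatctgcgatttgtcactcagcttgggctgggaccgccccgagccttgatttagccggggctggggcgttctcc
Peg3 (chr7:6730420-6730669, minus strand): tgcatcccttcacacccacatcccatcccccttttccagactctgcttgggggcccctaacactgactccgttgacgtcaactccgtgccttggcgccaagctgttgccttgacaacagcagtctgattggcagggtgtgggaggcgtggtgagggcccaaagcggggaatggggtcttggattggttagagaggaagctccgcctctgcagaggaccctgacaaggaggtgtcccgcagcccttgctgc
The whole windows held 17 CpG sites for Mest as shown, 26 for Plagl1 and 13 for Peg3. The Mest window without the letters held 8, and the median window of the table held 7. The windows of Nnat, Grb10 and Meg3 with the letters held 17, 45 and 13. The letters themselves contain a CpG, and their share among windows of like CpG content was not tested. A match of these letters is a description of the sequence, and methylation was not measured here.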

How the data were processed

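RNA-seq of 3T3-L1 cells on day 0, 4 and 8 (n = 3) was used, grouped by the sample titles. According to the study's methods, the authors removed low-quality and adaptor reads, mapped the rest with HISAT/Bowtie2 and quantified with RSEM. Per the labels, CASAVA 1.4 and Bowtie2 were used, and the libraries were made with a BGISEQ kit, while the methods name an Illumina platform. Genome build, annotation, strand setting and other versions are not given in the sources used here. The authors deposited expected counts (RSEM's estimated counts, not normalized) and FPKM. Only genes with an FPKM of at least 0.01 are listed, and missing genes were set to 0. Of the gene IDs, 19040 of 19094 matched RefSeq, and 26 symbols turned into dates were restored.

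Expected counts were rounded, filtered with filterByExpr by day, scaled with TMM factors (0.954 to 1.05) and tested in R 4.3.3 with edgeR 4.0.16 (glmQLFit, glmQLFTest), 1 coefficient per day over all 9 samples, without covariates. The common biological coefficient of variation was 0.0538. The SE is the log2 fold change divided by the square root of F. No replicates were merged, since the lowest chi-square per gene between replicates was 2.40. Scripts were tested on simulated data. Alternatives were RLE and upper-quartile factors, library size alone, no filter, the Wald test of DESeq2 1.42.0, the exact test of edgeR, limma 3.58.1 on log2(FPKM + 1) and log2(FPKM + 0.1), separate models, a replicate block, no fold threshold and each sample left out.

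The members and gene lists were chosen with earlier results of these data known. The text names the 10 genes, tested genes of their domains, other listed imprinted genes if called, markers, and the 3 nearest profiles of each called gene. Shared stretches were 50 bases of GENCODE vM21 transcripts. Some marker genes are not reported here.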

Additional observations from a re-analysis of the deposited data

How the results depend on the processing

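Every call of Peg10, Mest and H19 was kept under all alternatives, as were the whole-process call of Plagl1 and all calls of Igf2 and Dlk1. The call of Nnat over the whole process changed most: with upper-quartile factors, library size alone, the exact test of edgeR, limma on log2(FPKM + 0.1) and the replicate block, 2 of the 10 genes (Peg3 and Nnat) were called lower in place of 1. The adjusted p of Nnat was then 0.0465, 0.0392, 0.0161, 0.0228 and 0.0285, and it ranged from 0.0236 to 0.224 over the samples left out in turn. With limma on log2(FPKM + 1), 0 of the 10 genes were called lower, since Peg3 was at -0.87, and counts of all genes called shrank to 708 higher and 565 lower (early), 224 and 136 (late) and 753 and 528 (whole). Over the list of 68 imprinted genes this setting gave 3 higher and 2 lower (early), 5 higher (late) and 1 lower (whole), against 6, 4, 9 and 3. A pseudocount of 1 is above the FPKM of several of these genes. Without the fold threshold, 4 of the 10 genes were higher and 1 lower (early), 5 higher and 2 lower (late) and 6 higher and 1 lower (whole), and for all genes the counts were 4676 and 4430, 2964 and 2989, and 4583 and 4756. The median of the genes tested moved to 0.91 in the late phase with separate models. Over the whole process it was 0.995 with upper-quartile factors, 0.94 with library size alone, 0.73 and 0.91 with limma (pseudocounts of 1 and 0.1) and 1.59 with separate models, where Nnat was filtered out. Library size alone shifted the median of all genes from -0.02 to -0.13 over the whole process. Without the filter on low counts 5 of the 10 genes were called higher over the whole process in place of 4, Grb10 being the fifth. Leaving out single samples gave 4 to 5 genes called higher, 1 to 2 called lower and medians of 1.01 to 1.11 over the whole process.

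Directions turned only for values whose 95% confidence interval included 0. The early value of Sgce was -0.0068 with library size alone and -0.0086 and -0.0088 with limma (pseudocounts of 1 and 0.1). The late value of Ddc was 0.0036 with RLE factors and 0.013 with limma on log2(FPKM + 0.1). With samples left out, early values ran from -0.26 to 0.18 for H19, -0.625 to 0.0927 for Nnat, -0.30 to 0.15 for Rtl1 and -0.115 to 0.0147 for Ube3a, and late values from -0.39 to 0.35 for Ddc and -0.21 to 0.12 for Mkrn3. The cause was not tested. Where a day keeps 2 samples, the spread is pooled over the days. The replicate numbers were not taken as pairing the samples, since the labels do not say that they mark a shared culture and the deviations of same-numbered samples correlated at -0.03 to 0.07, under 0.1 in each of 9 pairs. As a hint from the data, 6 of the 9 samples correlated best with their own number. Beyond Nnat, the replicate block changed no call among the tested genes of the 9 domains and the other called imprinted genes. Depth limits Nnat, Grb10, Meg3, Ddc, Ppp1r9a and Rian, with few reads each. FPKM percentiles moved in 20 cases when genes under an FPKM of 1 were left out, so ranks alone are given.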

Other observations

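Beyond the domains of the 10 genes, 3 further imprinted genes of the list were called. Decorin (Dcn), a small leucine-rich proteoglycan of the matrix with reported maternal expression in placenta, was at 179.17 to 223.69 FPKM on day 0, 262.41 to 274.34 on day 4 and 876.46 to 948.14 on day 8. It was called higher in the late phase (log2 fold change 1.80, SE 0.07) and over the whole process (2.29, SE 0.07). Slc38a4, a paternally expressed amino acid transporter, was at 25.19, 31.67 and 26.58 FPKM on day 0, and each sample of the later days was at 10.59 or less. It was called lower in the early phase (log2 fold change -1.50, SE 0.08) and over the whole process (-1.37, SE 0.08). Tspan32, a tetraspanin with 6 to 34 estimated reads per sample, was called lower in the early phase (-1.01, SE 0.34) and higher in the late phase (1.49, SE 0.32). Its early call was lost without day 0 replicate 1 (-0.96), day 4 replicate 1 (-0.91) or day 4 replicate 2 (-0.71) and with limma on log2(FPKM + 0.1) (-0.997), and both calls were lost with limma on log2(FPKM + 1).

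Of all 68 imprinted genes listed, 62 were in the files and 44 were tested. In the early phase 6 were called higher and 4 lower, in the late phase 9 higher and 0 lower, and over the whole process 9 higher and 3 lower. The shares of all genes tested were 9.77% and 7.98%, 4.24% and 2.81%, and 10.3% and 7.7%. Ppp1r9a is in each of the higher counts, and Ddc in those of the early phase and the whole process. Both passed the filter only with day 8 included, so these counts are a description. By adjusted p of edgeR alone, 17 of the 44 were higher and 10 lower in the early phase, 17 and 8 in the late phase and 22 and 9 over the whole process, against 69.2%, 45.3% and 71% of all genes in either direction. The 6 markers of dividing cells summed to 83.7 ± 14.97 FPKM on day 0, 44.5 ± 1.47 on day 4 and 49.9 ± 2.82 on day 8 (SD, n = 3), and 2 of the 6 were called lower in the early phase. The part of cell division in the values of the imprinted genes was not tested.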
